A study of Mus musculus with 3 samples.

Results

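Among the 2217 Cbx2 peaks of the deposited table, 271 (12.2%) lay alone and were of middle length. They were the rows of 600 to 5000 bp, both end positions counted, with an edge-to-edge gap of at least 500000 bp to every other row on the same chromosome. No signal value entered this choice, although the length of a called peak usually depends on the signal it was called from. The study profiled Cbx2 in C3H10T1/2 cells, a line of mesenchymal progenitors from C3H mouse embryos. One chromatin immunoprecipitation (ChIP) library came from cells with stable expression of FLAG-HA-tagged wild-type histone H3.3 (WT). The other came, by its title, from cells expressing H3.3K36M, in which methionine replaces lysine 36, although its genotype label reads as the WT one. Each group has 1 ChIP library and no replicate, so no difference below could be set against a spread between replicates and no p-value is given. The labels describe an added histone gene and no change to the cells' own histone H3 genes. The sources used here give neither the promoter that drives it nor whether the cells are 1 clone.

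Cbx2 is a subunit of Polycomb repressive complex 1 (PRC1). Its chromodomain binds histone H3 trimethylated at lysine 27, the mark laid down by Polycomb repressive complex 2, and its disordered region compacts nucleosomes. Polycomb sites are best known from developmental regulator genes, where complexes often cover long domains or clusters of neighbouring sites, but they also occur as single CpG-rich sites far from others. Methylation of lysine 36 hinders the enzyme that methylates lysine 27 on the same histone tail, and the K36M histone inhibits methyltransferases of lysine 36. The series compares where Cbx2 sits with either histone. The isolated peaks show this comparison at places with no second Cbx2 peak nearby.

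These peaks were small and spread over the whole genome. They lay on all 20 chromosomes of the table, from 7 on chromosome 18 to 24 on chromosome 1. Their median length was 1400 bp, against 1600 bp over all peaks, and 41 of them had the shortest length admitted, 600 bp. The gap to the nearest other peak had a median of 1.098 Mb and quartiles of 0.665 and 1.87 Mb, against a median of 43.8 kb over all peaks. At 148 peaks no other peak lay within 1 Mb. Of the 271 peaks, 16 were the first or last on their chromosome, so that only 1 side could be measured. Together they covered 479.6 kb, 8.52% of the length of all peaks, and held 7.58% of WT reads and 7.44% of K36M reads in peaks. Gaps rest on the rows of the table: a site below the calling threshold would not count as a neighbour.

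Isolation went with length. Of the 428 peaks of 400 bp, 24.8% were at least 500000 bp from any other. This share was 20.9% of 454 peaks at 600 to 1000 bp, 20.6% of 457 at 1200 to 2000 bp, 13.9% of 590 at 2200 to 5000 bp and 10.4% of 288 longer peaks. The isolated peaks were therefore shorter than their crowded counterparts, and comparisons by isolation are given below also within length classes. The chromosomes differed in the share of their peaks that stood alone. On chromosome 7, 16 of 47 peaks (34.0%) were isolated and of middle length, and on chromosome 14, 21 of 67 (31.3%). Chromosome 15, with 213 peaks, had 8 (3.76%), and chromosome 16 had 8 of 144 (5.56%).

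Cbx2 signal at the isolated peaks was lower in K36M on the scale of reads per 1000000 library reads (RPM). The median was 3.38 RPM in WT (quartiles 2.08 and 6.08) and 1.21 RPM in K36M (0.731 and 2.32). In WT the values ran from 1.16 to 23.8 RPM and in K36M from 0.138 to 19.6 RPM, so the ranges of both libraries overlapped widely. The ratio of each peak was taken as log2 of K36M over WT, with a pseudocount of 0.1 RPM on both. Its median was -1.45, a 2.73-fold lower level, with quartiles of -1.82 and -1.01. Over all peaks the median was also -1.45, with quartiles of -1.81 and -1.004. The size of this difference rests on the RPM scale: with K36M scaled 2.42-fold to the same sum over all peaks, the median of the isolated peaks was -0.24. Scaled 2.89-fold to the same median, which makes typical peaks equal by construction, it was 0.0050.

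In counts, 206 of the 271 isolated peaks were at least 2-fold lower in K36M, a share of 76.0%, against 75.3% of all peaks. At least 4-fold lower were 42 (15.5%), against 15.9% of all peaks. None was at least 2-fold higher, against 0.271% of all peaks, and 9 were higher by any amount (3.32%), against 4.6%. These shares lie near those of the whole table. At 250 isolated peaks (92.3%, against 86.8% of all peaks) the 95% exact (Clopper-Pearson) interval of the K36M/WT ratio lay wholly below 1, and at 2 (0.738%, against 2.75%) wholly above it. At the other 19 the difference was not detectable at this depth. Such intervals cover counting error of reads only. Summed over the isolated peaks, 36209 WT reads (0.124% of the library) stood against 18191 K36M reads (0.0502%), a depth-corrected ratio of 0.406 (95% exact interval 0.399 to 0.413), against 0.413 over all peaks.

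**Figure D1:**
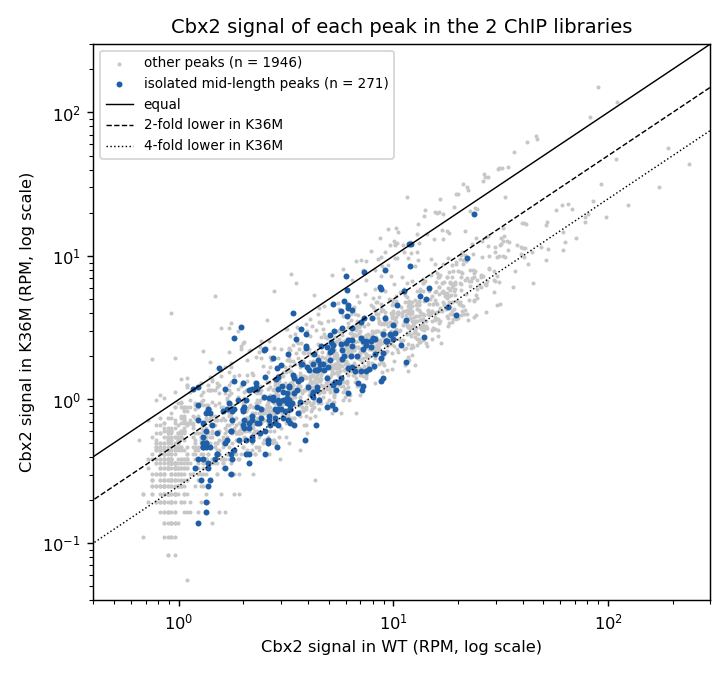
Cbx2 signal of every peak in WT (x axis) and K36M (y axis), both in RPM on log scales, 1 point per peak, with lines for equal, 2-fold lower and 4-fold lower signal. The 271 isolated mid-length peaks (blue) run through the body of the other 1946 peaks (grey), and 206 of them lie at least 2-fold lower by the log2 ratio with its pseudocount.

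The typical change of the isolated peaks was close to that of peaks with near neighbours. Mid-length peaks with a neighbour within 10000 bp, here called crowded, numbered 444 and had a median log2 ratio of -1.47, which differed from that of the isolated peaks by 0.024. At gaps from 10 to under 100 kb the median was -1.50 over 484 peaks, and from 100 to under 500 kb it was -1.48 over 302 peaks. The lower and upper quartiles of these 4 classes lay within -1.82 to -1.81 and -1.08 to -1.01. No test of these differences was possible with 1 library per group. Among the isolated peaks themselves, the medians were -1.37 at gaps of 0.5 to under 1 Mb (123 peaks), -1.60 at 1 to under 2 Mb (90 peaks) and -1.37 at 2 Mb or more (58 peaks), with no steady order. Across the 271 peaks the log of the gap and the log2 ratio showed little relation (Pearson r -0.023, Spearman rho -0.057), as a description of points that share 2 libraries.

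**Figure D2:**
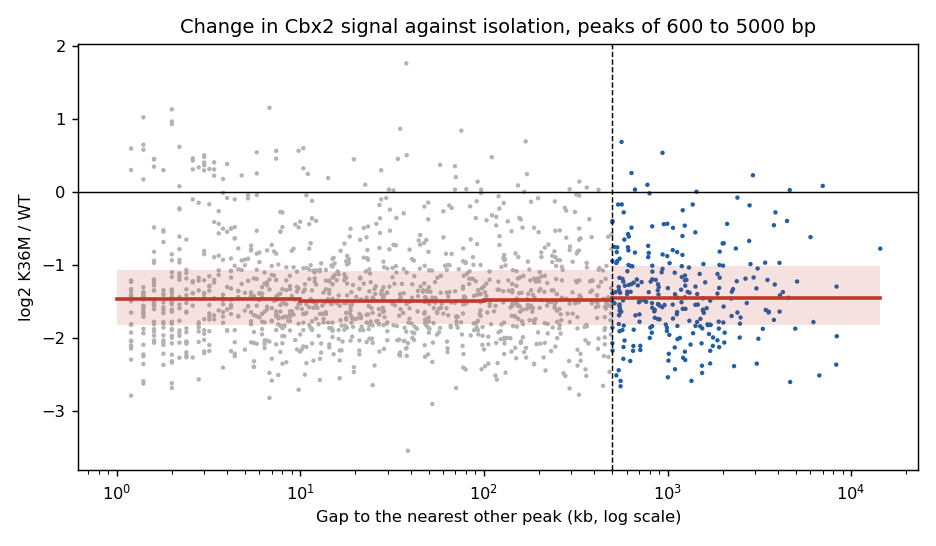
The log2 ratio of K36M to WT (y axis) of each peak of 600 to 5000 bp against its gap to the nearest other peak (x axis, kb, log scale). Red lines and bands give the median and quartiles of the 4 gap classes, the dashed line marks 500 kb, and isolated peaks are blue. The medians stay between -1.50 and -1.45. The points above 0 are most frequent at the smallest gaps, where 18 of the 38 crowded ones lie on chromosome 13.

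Within length classes the isolated and crowded medians stayed close and differed in either direction. At 600 to 1000 bp they were -1.30 (95 isolated peaks) and -1.39 (113 crowded), at 1200 to 2000 bp -1.48 (94) and -1.39 (133), and at 2200 to 5000 bp -1.55 (82) and -1.56 (198). The isolated peaks of 600 to 1000 bp had the least negative median of the 3 isolated classes. Their WT median was 1.78 RPM, where the pseudocount weighs most. Their summed reads, free of a pseudocount, gave a ratio of 0.473 (0.452 to 0.494), against 0.400 (0.387 to 0.414) and 0.391 (0.382 to 0.401) in the longer classes. A few dense peaks gave part of this sum. Those on chromosome 10 (39978200) and chromosome 15 (82979800) held 222 and 262 of its 3145 K36M reads. They also held 253 and 176 of its 5372 WT reads. The ratio without them was not computed, so the higher ratio of the short class is not ascribed to them. Among crowded peaks the summed ratios ran the other way, 0.511 at 600 to 1000 bp against 0.551 and 0.556 in the longer classes.

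Higher values in K36M were most frequent among the crowded peaks, and the classes in between were close to the isolated one. No test of these differences was possible. Of the crowded peaks, 38 of 444 (8.56%, against 4.6% of all peaks) were higher in K36M, and 31 (6.98%, against 2.75% of all peaks) had an interval wholly above 1. Among the 271 isolated peaks these were 9 (3.32%) and 2 (0.738%). At gaps from 10 to under 500 kb they were 3.82% and 1.91% of the mid-length peaks. The summed reads of the crowded peaks gave a ratio of 0.552 (0.546 to 0.557), against 0.406 for the isolated ones and 0.421 and 0.407 for the classes from 10 to under 100 kb and from 100 to under 500 kb. Of the 38 crowded higher peaks, 18 lay on chromosome 13. Without that chromosome, 20 of 419 crowded peaks were higher and their summed ratio was 0.440 (0.435 to 0.446), while the isolated peaks had 8 of 263 and 0.405. The spread of log2 ratios was an SD of 0.63 over the isolated and 0.76 over the crowded peaks, or 0.69 for the crowded peaks without chromosome 13.

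The changes of successive isolated peaks were close to unrelated. In 91 cases, 2 isolated peaks followed each other along a chromosome. Between the log2 ratios of such pairs, Pearson's r was 0.063 and Spearman's rho 0.050, and the median absolute difference was 0.64. For 184 consecutive pairs of crowded peaks less than 10000 bp apart, r was 0.84 and rho 0.67, with a median absolute difference of 0.31. These pairs include chromosome 13, which held 18 of the 38 crowded peaks higher in K36M. Their correlation was not computed without it. Mid-length neighbours 10 to 100 kb apart had r = 0.55 (272 pairs) and those 100 to 500 kb apart r = 0.16 (188 pairs). Pairs share peaks and both libraries, and isolated peaks are shorter and carry more counting error, so these values are descriptions. Pairs of either kind occurred, and the examples were picked after their values were seen. On chromosome 17 the isolated peak from 55851400 to 55855999 went from 14.7 to 5.96 RPM between the libraries, a log2 ratio of -1.28. Its next neighbour, 1249400 bp further on (57105400 to 57109599), went from 19.6 to 3.89 RPM, a log2 ratio of -2.30. They rest on 429 and 574 WT reads, and the intervals of their ratios, 0.344 to 0.480 and 0.164 to 0.239, did not overlap. On chromosome 1, by contrast, the isolated peak with the lowest log2 ratio of all, -2.67 (96643000 to 96644399, 113 WT and 19 K36M reads), lay 555000 bp from one at -2.59 (97199400 to 97202799).

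The strongest isolated peaks in WT changed by very different amounts. The peak with the most signal lay on chromosome 4 (mm9, 135699600 to 135703599), 3869000 bp from its nearest neighbour, at WT 23.8 and K36M 19.6 RPM. Its ratio was 0.824 (0.741 to 0.916), a small difference but beyond counting error. Next came a peak on chromosome 3 from 145308200 to 145312999, where WT gave 22.1 and K36M 9.74 RPM (ratio 0.441, 0.387 to 0.503). The first of these stayed within 2-fold of WT and the second passed the 2-fold limit. The chromosome 17 peak at 57105400 was the next in WT. It was followed by a 5000 bp peak on chromosome 1 (135451600 to 135456599), with 17.9 and 4.41 RPM and a ratio of 0.247 (0.205 to 0.295). In K36M the ranking after the chromosome 4 peak went on with a peak on chromosome 6 (136751400 to 136753199, 12.1 RPM in both libraries) and one on chromosome 9 (44142600 to 44146399, WT 11.9 and K36M 12.1 RPM). The chromosome 3 peak and a peak on chromosome 7 (75071400 to 75074399, 11.9 and 8.55 RPM) completed the strongest 5. Of the strongest 27 isolated peaks in each library, 13 (48.1%) were shared. These strongest peaks held 27.1% of the isolated peaks' reads in WT and 35.1% in K36M.

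The lowest ratios were spread over 4 chromosomes and over lengths. The 5 peaks named here, of 1800 to 5000 bp, had 13 to 17.1 WT reads per 200 bp, against quartiles of 12.6 and 15.1 over the isolated peaks. Those at 97199400 on chromosome 1 and 93760600 on chromosome 9 lay above the upper quartile. Among isolated peaks at or above their median level, the lowest log2 ratio belonged to chromosome 9, 93760600 to 93763599, where 256 WT reads stood against 49 in K36M, or 8.74 against 1.35 RPM. Its ratio was 0.155 (0.111 to 0.211), and no other peak lay within 4654000 bp. A second chromosome 9 peak, from 33078600 to 33083599, had 11.5 and 1.82 RPM, a ratio of 0.159 (0.120 to 0.207). On chromosome 1 the peak from 97199400 to 97202799 had 8.98 and 1.41 RPM, a ratio of 0.157 (0.114 to 0.212). The next was on chromosome 7 from 104090200 to 104091999, with 4.34 and 0.662 RPM (ratio 0.153, 0.0943 to 0.238), and the fifth on chromosome 14 from 94300600 to 94303799, with 7.10 and 1.16 RPM (ratio 0.163, 0.114 to 0.228). Their log2 ratios lay between -2.61 and -2.52. Because no background was subtracted, a part of the remaining K36M reads may be background, and its size was not tested. The fewest K36M reads of all, 5 against 36 in WT, were at a 600 bp peak on chromosome 2 (15801800 to 15802399), named after its value was seen. Its ratio of 0.112 had an interval from 0.0344 to 0.287.

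The 9 isolated peaks higher in K36M lay on 7 chromosomes, and only 2 of them differed beyond counting error. They were listed in full after their values were seen. A peak of 800 bp on chromosome 11 (69571600 to 69572399) went from 57 to 116 reads, or 1.95 to 3.20 RPM, and its ratio was 1.64 (1.19 to 2.30). A 600 bp peak on chromosome 8 (32260000 to 32260599) had 53 and 97 reads, 1.81 and 2.68 RPM, a ratio of 1.48 (1.05 to 2.11). The intervals of the other 7 held 1. Of these, the chromosome 15 peak from 82979800 to 82980799 (6.01 and 7.23 RPM, ratio 1.20, 0.99 to 1.46) and a second chromosome 11 peak, from 43205200 to 43206599 (3.42 and 4.03 RPM, ratio 1.18, 0.908 to 1.54), had the highest ratios. The remaining 5 had ratios from 1.004 to 1.08. They included the peaks on chromosomes 6 and 9 already named, a peak on chromosome 12 at 8503600 that lay 7006000 bp from any other, and 600 and 800 bp peaks on chromosomes 13 and 8. Of the 9, 5 were at most 1000 bp long.

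Read density was counted per 200 bp, and its quartiles lay closer together in WT than in K36M. In WT the isolated peaks had a median density of 13.3 reads with quartiles of 12.6 and 15.1 and a range of 11.3 to 50.6. In K36M the median was 6.0, the quartiles 4.49 and 8.37 and the range 1.67 to 52.4. The lowest WT density of any peak in the table was 9.5 reads. At the depth of the K36M library this corresponds to 11.8 reads, and 238 isolated peaks (87.8%, against 86.9% of all peaks) lay below it in K36M. A table chosen on WT density would favour lower K36M values, and the sources used here do not give how peaks were called. Length and signal went together across the isolated peaks, with a Pearson r on log scales of 0.95 in WT and 0.74 in K36M. Since RPM is not divided by length, longer peaks of like density hold more signal by construction. For density between WT and K36M, Pearson's r was 0.52 and Spearman's rho 0.35.

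**Figure D3:**
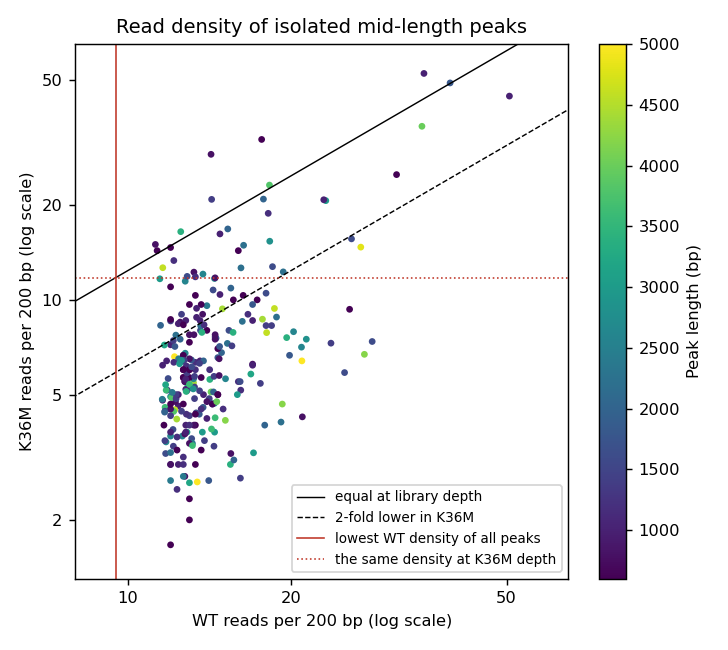
Reads per 200 bp of the 271 isolated peaks in WT (x axis) and K36M (y axis), both on log scales and as recovered reads, coloured by peak length in bp. Black lines mark equal and 2-fold lower density after allowing for library depth, and red lines mark the lowest WT density of all peaks, 9.5 reads, and the same density at K36M depth, 11.8 reads. Most points lie below the dotted red line, and the 5 densest WT peaks lie above the 2-fold line.

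The densest isolated peaks in WT had K36M levels within 2-fold of WT, while most of the next densest did not. This split was noticed after the values were seen, and density in WT is also the denominator of the ratio. Of the 19 isolated peaks with at least 20 WT reads per 200 bp, 12 (63.2%) were at least 2-fold lower in K36M, against 58.2% of the 225 such peaks in the whole table. The 5 densest, with 31.3 to 50.6 WT reads per 200 bp, had log2 ratios from -0.61 to 0.26. They were led by a 1000 bp peak on chromosome 10 (39978200 to 39979199), where 8.64 RPM became 6.13 RPM (ratio 0.709, 0.589 to 0.852). The chromosome 6 peak at 136751400 and the chromosome 15 peak at 82979800 were next, with 39.3 and 35.2 WT reads per 200 bp, and had 48.9 and 52.4 in K36M. Of the other 14, with 20.2 to 28.3 WT reads per 200 bp, 12 were at least 2-fold lower, and the lowest log2 ratio was -2.38. The 225 such peaks of the whole table also spread widely, with log2 quartiles of -2.03 and -0.14 and 45 higher in K36M. Shares over all peaks were not computed for the narrower density ranges, so the split cannot be called particular to isolated peaks.

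On the RPM scale the median of the isolated peaks was lower in K36M on all 20 chromosomes. The medians of the log2 ratio ran from -1.84 on chromosome 12 (10 peaks) to -0.95 on chromosome 15 (8 peaks). On chromosome 1, 22 of 24 were at least 2-fold lower, with a median of -1.77 and a range of -2.67 to -0.83. On chromosome 14 these were 18 of 21, and on chromosome 18 they were 6 of 7. Chromosomes 8 and 11 had the smallest shares next to chromosome 15, with 6 of 11 and 5 of 10, and each held 2 of the higher peaks. Over all peaks of chromosomes 1, 14 and 18 the medians were -1.71, -1.50 and -1.64. Those over all peaks of chromosomes 8, 11 and 15 were -1.27, -1.35 and -1.41. Chromosome 13, whose 63 peaks had a median of -0.85 in all, had a median of -1.30 over its 8 isolated peaks, of which 1 was higher in K36M. On the X chromosome the 15 isolated peaks had a median of -1.50, with 12 at least 2-fold lower and none higher, close to the -1.43 of the 256 autosomal ones.

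**Figure D4:**
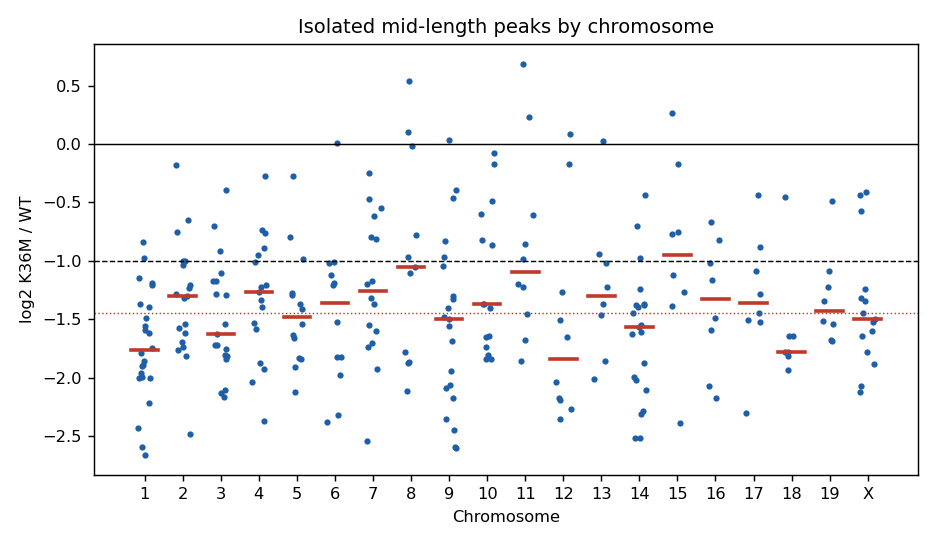
The log2 ratio of K36M to WT (y axis) of each isolated peak by chromosome (x axis), with red bars for chromosome medians, a dotted line at the median of all 271 isolated peaks, -1.45, a dashed line at 2-fold lower and a solid line at 0. Points are spread sideways at random for visibility. Every chromosome has peaks on both sides of the dotted line, and 13 chromosomes have none above 0.

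The peak with the largest gap and those named at the gap limit had log2 ratios above the upper quartile of the isolated peaks, -1.01. This was not general at the limit. On chromosome 13 the peak from 84357000 to 84358199, tied at a gap of 500600 bp and left out by position, had a log2 ratio of -1.86. The largest gap, 14401800 bp, belonged to a 1000 bp peak on chromosome 8 (3295400 to 3296399), the first on its chromosome, where WT had 2.53 and K36M 1.43 RPM (ratio 0.568, 0.390 to 0.820). Gaps of 8350400 and 8323800 bp belonged to peaks on chromosome 6 (145103600 to 145104999, 2.90 and 0.662 RPM, ratio 0.228) and chromosome 5 (82504000 to 82504599, 1.298 and 0.469 RPM, ratio 0.361). These last peaks had log2 ratios of -1.98 and -1.30. Just inside the gap limit were peaks on the X chromosome (54196600, gap 500400 bp, 3.52 and 2.62 RPM, log2 ratio -0.41) and chromosome 13 (83854200, gap 500600 bp, 4.61 and 2.35 RPM, log2 ratio -0.95). Just outside it were peaks on chromosome 15 (37890200, gap 496000 bp, 2.02 and 1.13 RPM, log2 ratio -0.78) and chromosome 3 (10496000, gap 495400 bp, 4.71 and 3.12 RPM, log2 ratio -0.58). The first peak at the lower length limit, 600 bp on chromosome 1 from 79604000 to 79604599, had 39 WT and 6 K36M reads, a ratio of 0.124 with an interval from 0.0430 to 0.296.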

How the data were processed

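The aligner (Bowtie 1.0.0) and the genome build (mm9) are named per the submitters' processing notes. Not given in the sources used here: the peak caller, its input libraries and duplicate handling. The labels name different suppliers of the Cbx2 antibody. The deposited value columns are headed RPKM, but are RPM: 100% of values in each were whole multiples of 1 step, within 1e-06 of a read, whatever the peak length. Taking the step as 1 read gave libraries of 29278813 (WT) and 36243012 (K36M) reads and the reads per peak used here, from at least 34 in WT and 5 in K36M at isolated peaks. The WT column was read as the Cbx2 library because the table is named for Cbx2. The input library was not analysed here.

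Gaps, ratios, medians and 95% exact intervals were computed with Python 3.11.15, numpy 2.4.6, pandas 2.3.3 and scipy 1.17.1, and tested on simulated reads. With 1 library per group there was no test. PCR reads are not independent molecules, so intervals cover counting error only. The peaks and comparison classes were chosen with earlier results of these data known. Named peaks were the 5 lowest and 5 highest log2 ratios at or above the median mean RPM, the 5 strongest in each library, the 3 densest in WT, the 3 largest gaps, the length extremes and the 2 nearest the gap limit on either side; others are marked as named later. The gene and promoter tables at hand are on GRCm38, so no gene, annotation or sequence was assigned to these mm9 positions. Alternatives were other pseudocounts, scalings, filters, fold, gap and length limits.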

Additional observations from a re-analysis of the deposited data

How the results depend on the processing

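Of 56 recomputed values for the isolated peaks, 37 stayed within counting error or the interval of the median, or within 1.5 times for counts, and the cause of the other changes was not tested except where built in. No paired analysis was possible because WT and K36M have 1 ChIP library each, and none could be left out. Scaling to the same median over all peaks moves every peak alike and makes the libraries' medians equal by construction. Under it, the isolated peaks' median log2 ratio was 0.0050, the pooled ratio 1.17, and 12 isolated peaks passed the 2-fold limit downwards, 29 passed it upwards and 136 were higher by any amount. With the same sum these were -0.24, 0.982, 25, 16 and 92. That scaling makes the sums over all peaks equal by construction. Its pooled ratio of 0.982 therefore only restates 0.406 for the isolated peaks against 0.413 over all peaks, and shows no lower level in K36M. Both factors also raise background reads in K36M. A pseudocount of 1 RPM gave a median of -0.96 and 124 peaks at least 2-fold lower. A 3-fold limit left 110 lower peaks, and a 1.5-fold limit gave 1 higher peak. Smaller sets gave smaller counts by construction: gaps of at least 1000000 bp (148 peaks) left 117 lower, 4 higher and a pooled ratio of 0.395, and lengths of 1000 to 3000 bp (165 peaks) left 127 and 3. The difference from crowded peaks moved between -0.044 and 0.067, so its sign is not settled. Leaving out chromosome 13, added after seeing the data, kept the median at -1.45. Depth limits single short peaks most, since 600 bp peaks held as few as 5 reads in K36M.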
